A study of Schizosaccharomyces pombe with 70 samples.

Results

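Probes named for the long non-coding RNA nc-pho1 of fission yeast (Schizosaccharomyces pombe) were followed through a hydroxyurea (HU) time course in 5 strains. They may also read mRNA of the overlapping gene pho1, as set out below. The gene was taken by its symbol in the probe annotation of the array, which gave 1 feature of 4929, read by 2 probes of 9858. The gene had been chosen by its measured log2 ratios, which were higher during treatment in wild type and in chk1 and lower in cds1, so its changes in those strains, and its differences from wild type, are given as description and without a test.

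RNA was taken from asynchronous cultures grown at 30 °C and exposed to 8 mM HU, which depletes deoxynucleotides by blocking ribonucleotide reductase and so slows replication forks, with sampling at 0, 10, 30, 60 and 120 min. Wild type was compared with mutants labelled rad3, cds1 and chk1, and with a double mutant labelled rad3sep1, written rad3 sep1 here; the labels give no allele, mating type or auxotrophic marker. Rad3 is the upstream kinase of the DNA structure checkpoints, Cds1 the effector kinase of stalled forks, Chk1 the effector kinase of DNA damage, and Sep1 a forkhead transcription factor. Every value is a log2 ratio of the sample to untreated wild type, the average of both probes, so 0 means a signal equal to that reference. Single features could lie off 0 even in the untreated wild-type samples, where nc-pho1 averaged 0.16 ± 0.14 (SD, n = 3).

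Wild type and each single mutant had 15 arrays and rad3 sep1 had 10, all from 2-colour hybridisations. Within groups, the arrays of 9 pairs differed from each other by a shift of the whole array and probe noise alone, and each pair was averaged to 1 sample, among them all 5 pairs of rad3 sep1, although the series text calls the repeats biological. The 61 remaining samples were 13 wild type, 14 rad3, 15 cds1, 14 chk1 and 5 rad3 sep1, and each rad3 sep1 time is a single sample whose spread was taken from the other groups. The transcripts of the mutated genes were low where the labels put them: rad3 at -2.20 ± 0.57 (SD, n = 14) in rad3 and -2.36 ± 0.03 (n = 5) in rad3 sep1, cds1 at -2.45 ± 0.33 (n = 15) in cds1, chk1 at -1.37 ± 0.23 (n = 14) in chk1, against -0.53 ± 0.18 (n = 13) in wild type, and sep1 at -3.54 ± 0.18 (n = 5) in rad3 sep1.

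nc-pho1, also called prt, belongs to a group of non-coding RNAs of the phosphate regulon. In phosphate-rich cells its transcription runs toward the acid phosphatase gene pho1 and keeps pho1 repressed by interference, and the transcript itself is cleared by the Mmi1 RNA elimination pathway and ended early when the 3' end machinery acts. The non-coding RNA prt2 stands in the same relation to pho84, a phosphate transporter gene beside it, and a further non-coding RNA to tgp1, a glycerophosphodiester transporter gene. The zinc-finger factor Pho7 activates all 3 coding genes when phosphate is scarce.

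What the probes read is limited by the annotation. In the reference annotation of assembly ASM294v3, nc-pho1 lies on chromosome II and overlaps the protein-coding gene pho1 and 1 other non-coding RNA, neither of which had probes under its own symbol. The position and strand of the probes are not given in the sources used here, so nc-pho1 RNA and pho1 mRNA cannot be told apart in any value below, and "nc-pho1" means the signal of its probes. Both probes moved together, with a Pearson r of 0.977 across the 61 samples, which share strains, times and arrays. The first probe read higher than the second by 0.08 on average, with an SD of 0.18 and a range of -0.46 to 0.52.

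**Figure D1:**
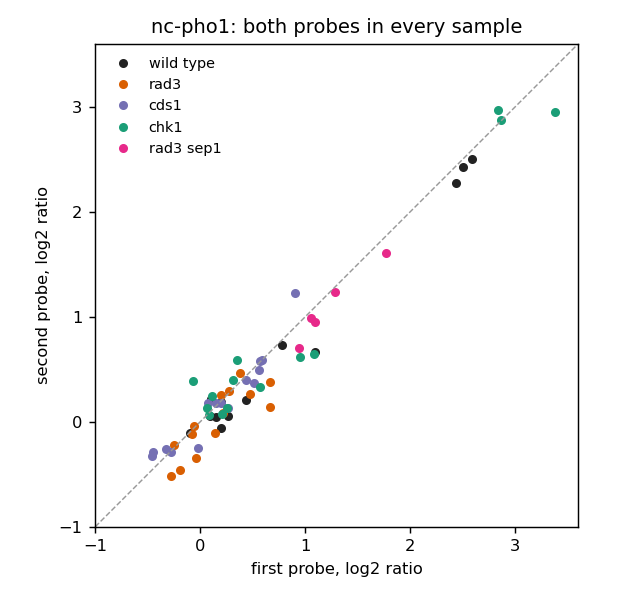
The log2 ratio of the first nc-pho1 probe (x axis) against that of the second (y axis) in each of the 61 samples, coloured by strain, with the dashed line where both are equal. Wild type and chk1 at 120 min form the upper right group on both probes. The lower left holds rad3 and cds1 together with wild type and chk1 from 0 to 30 min, apart from 1 untreated cds1 sample. That sample read 0.90 on the first probe and 1.23 on the second.

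In wild type, nc-pho1 overlapped its starting level up to 30 min and was 4.92-fold above it at 120 min. The log2 ratios of the 3 untreated samples were 0.32, 0.08 and 0.07. They were 0.19, 0.16 and 0.16 at 10 min, and -0.10 and 0.10 in the 2 samples at 30 min. The samples at 10 and at 30 min each overlapped the untreated ones, though not each other.

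At 60 min the 2 wild-type samples stood at 0.75 and 0.88, and at 120 min the 3 samples stood at 2.47, 2.54 and 2.36. Both late groups lay above every earlier wild-type sample, and they did not overlap each other. The difference from 0 min was 0.66 ± 0.15 (SE of the limma fit) at 60 min and 2.30 ± 0.13 at 120 min, against -0.07 ± 0.12 for the early response (10 and 30 min averaged, less 0 min). For the late response (60 and 120 min averaged, less 0 min) the value was 1.48 ± 0.12, or 2.79-fold, the 12th highest of the 4921 features tested. At 120 min alone the rank was 5. These are RNA levels of whole cultures, in which a change in the share of cells at one stage and a change in RNA per cell cannot be told apart.

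The mutant in chk1, the effector kinase of DNA damage, ran close to wild type up to 60 min. Its untreated samples read 0.36, 0.07 and 0.16, its samples at 10 min 0.45, 0.14 and 0.18, and those at 30 min 0.47, 0.19 and 0.10. At 60 min the 2 samples read 0.87 and 0.78, between the wild-type values of that time. At 120 min they read 3.16, 2.87 and 2.90. All 3 lay above every wild-type sample of that time. Replicate 1 of chk1 carried the highest chk1 value at every time.

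The late response in chk1 was 1.71 ± 0.12, or 3.26-fold, and at 120 min the level was 2.78 ± 0.13, or 6.88-fold, above that of untreated chk1, the second highest change of all 4921 features. The early response was 0.06 ± 0.11. The late response exceeded that of wild type by 0.22 ± 0.17, and the change at 120 min by 0.48 ± 0.19. Each probe gave its own size for the late response, 1.91 for the first and 1.50 for the second.

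In cds1, the mutant in the effector kinase of stalled forks, nc-pho1 was highest before treatment and lowest after 120 min. The untreated samples read 1.06, 0.42 and 0.58, so 1 sample stood well above the other two, and all 3 lay above the untreated wild-type samples. At 10 min they read 0.53, 0.44 and 0.17, and at 30 min 0.59, 0.19 and 0.20. They then went to 0.13, -0.29 and -0.28 at 60 min and -0.14, -0.37 and -0.39 at 120 min. Neither late group overlapped the untreated samples, while the groups at 60 and 120 min overlapped each other.

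The late response in cds1 was -0.91 ± 0.11, a level 1.88-fold lower than at 0 min and the 5th lowest change of 4921. At 120 min alone it was -0.99 ± 0.13, and the early response was -0.33 ± 0.11. Replicate 1 carried the highest value at each of the 5 times. Without its untreated sample the late response was -0.72, the early response -0.15 and the excess over wild type at 0 min 0.34, against 0.53 ± 0.13 with it. With replicate 1 left out at every time, a choice made after the values were seen, the late response was -0.83.

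**Figure D2:**
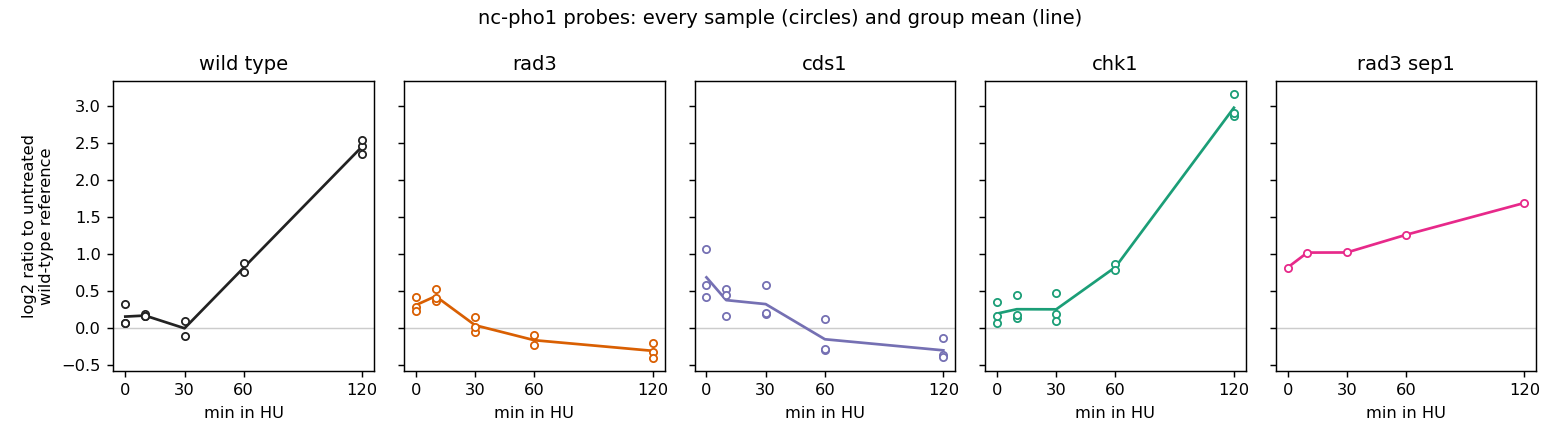
The log2 ratio of nc-pho1 to the untreated wild-type reference (y axis) in every sample (circles) against minutes in HU (x axis), 1 panel per strain, with lines through the group means. Wild type reached 2.36 to 2.54 and chk1 2.87 to 3.16 at 120 min, while every rad3 and cds1 sample of that time was below 0.

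No rad3 or rad3 sep1 value is part of the rule that chose the gene, so responses in these strains were tested. Earlier results of these data were known when the gene and the comparisons were chosen, which the p-values do not take into account. In untreated rad3 nc-pho1 read 0.29, 0.23 and 0.42, with a mean 0.16 ± 0.13 above that of untreated wild type. At 10 min it read 0.52, 0.37 and 0.41, and at 30 min -0.05, 0.02 and 0.15. At 60 min the 2 samples read -0.09 and -0.23, and at 120 min the 3 samples read -0.33, -0.40 and -0.20. No sample from 30 min onward reached the lowest untreated sample, and the samples at 120 min were all below 0.

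nc-pho1 fell in rad3. The late response was -0.55 ± 0.12 (SE), 1.46-fold lower, with an adjusted p of 0.000749 by limma with Benjamini-Hochberg adjustment over all 4921 features; all 5 late samples were below the untreated mean. In the same comparison 8.94% of all features fell and 10.4% rose, and nc-pho1 had the 100th lowest change. By time, the changes were 0.12 at 10 min (adjusted p = 0.731), -0.27 at 30 min (adjusted p = 0.315), -0.47 at 60 min (adjusted p = 0.0714) and -0.62 at 120 min (adjusted p = 0.000362, with 14.9% of features lower at that time). The early response was -0.08 ± 0.11 with an adjusted p of 0.793, while 2.24% of features changed.

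Set against wild type, the late response of rad3 was lower by a log2 difference of -2.03 ± 0.17 and that of cds1 by -2.39 ± 0.17. Each was the lowest difference among all 4921 features. At 120 min alone the differences were -2.92 ± 0.19 and -3.29 ± 0.19. Both comparisons share the wild-type samples, and the wild-type part of each belongs to the values that chose the gene, so neither was tested. At 120 min the rad3 mean was -0.31 ± 0.10 (SD, n = 3) and the cds1 mean -0.30 ± 0.14 (n = 3), and their samples overlapped.

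In rad3 sep1, nc-pho1 was above the untreated wild-type reference at every time. The single samples stood at 0.82, 1.02, 1.02, 1.26 and 1.69 from 0 to 120 min. The 2 arrays behind each were 0.90 and 0.74, 1.09 and 0.95, 0.99 and 1.06, 1.27 and 1.26, and 1.73 and 1.66. Every one of these arrays lay above all 14 rad3 samples.

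Averaged over the 5 times with equal weight, nc-pho1 was higher in rad3 sep1 than in rad3 by 1.10 ± 0.08, or 2.14-fold, with an adjusted p of 7.32e-15 by limma. The rad3 sep1 side is 1 series of single samples, which this fit takes as independent although same-numbered samples of a strain shared deviations across times, so that SE and p are too small. With the culture series as a random block, chosen after the values were seen, the difference was 1.09 ± 0.11 (adjusted p = 4.25e-11, consensus correlation 0.33), but how rad3 sep1 series differ from each other was not measured. In the first of these fits 28.5% of all features were higher and 32.2% lower, so a call there was common. Before treatment the difference was 0.51 ± 0.19 with an adjusted p of 0.0448, beside 6.32% of features higher and 15.7% lower. That call at 0 min was lost on the second probe alone (0.36, adjusted p = 0.267), without rad3 replicate 1 (0.49), without rad3 replicate 2 (0.46) and without the first rad3 sep1 array (0.43).

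nc-pho1 rose during HU in rad3 sep1 on the values as deposited. The late response was 0.66 ± 0.20, or 1.58-fold, with an adjusted p of 0.0169 by limma, and both late samples were above the untreated one. Among all features 11% rose and 5.14% fell, and the change in nc-pho1 ranked 401 from the top. At 120 min it was 0.87 ± 0.23 with an adjusted p of 0.00481, beside 11.5% of features higher and 6.62% lower at that time. The early response was 0.20 ± 0.20 with an adjusted p of 0.999, and 0.142% of features changed. After quantile normalization between arrays the late response was -0.11 with an adjusted p of 0.982, while with arrays centred on their median it was 0.63 with an adjusted p of 0.0235. On the first probe alone it was 0.59 with an adjusted p of 0.107.

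The late responses of both rad3 mutant strains differed by 1.21 ± 0.23 (rad3 sep1 minus rad3), with an adjusted p of 0.00331 by limma for the interaction term, a test added after the values were seen. In this comparison 0.772% of all features had a higher response in rad3 sep1. After quantile normalization the difference was 0.45 with an adjusted p of 0.941, and on the first probe alone 1.04 with an adjusted p of 0.0854.

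Ordered by mean, the 25 groups of strain and time began with chk1 at 120 min (2.98 ± 0.16, SD, n = 3) and wild type at 120 min (2.46 ± 0.09, n = 3). The rad3 sep1 samples at 120, 60, 30 and 10 min came next, then chk1 at 60 min, untreated rad3 sep1, wild type at 60 min and untreated cds1 (0.69 ± 0.34, n = 3). Untreated rad3 (0.31 ± 0.10, n = 3), chk1 (0.20 ± 0.15, n = 3) and wild type (0.16 ± 0.14, n = 3) lay lower, with rad3 and cds1 at 120 min last. Of the 17 neighbouring pairs in this order in which both groups held at least 2 samples, 16 overlapped, and chk1 and wild type at 120 min did not. In the other 7 pairs 1 or both groups were a single rad3 sep1 sample, which has no range of its own. Within groups the spread of nc-pho1 was like that of other features, with a residual SD of 0.163 against a median of 0.161.

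The phosphate genes were a list of 12, of which 9 had probes, pho1 not among them. None passed the test early in any strain by limma, where 0.772% of all features did in wild type, 2.24% in rad3, 0.528% in cds1, 1.22% in chk1 and 0.142% in rad3 sep1; at an unadjusted p under 0.05 there were 1, 1, 2, 2 and 1 of the 9. Late, 2 rose in wild type and 3 in chk1 with none lower, while 4 fell in rad3, 1 in rad3 sep1 and 2 in cds1 with none higher. The list's median late change was 0.01 in wild type, 0.19 in chk1, -0.08 in rad3, -0.10 in rad3 sep1 and -0.09 in cds1. Over all features the medians lay between -0.02 and 0.02. At 120 min alone, 3 of the 9 rose in wild type and 4 in chk1, none lower, beside 13% and 17.2% of all features. In rad3 4 fell and 1 rose, beside 14.9% of all features lower and 14.1% higher. In cds1 2 fell and in rad3 sep1 2 fell, none higher, beside 14.1% and 6.62% of all features lower.

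The background of the late counts was 12.3% of all features higher and 12.1% lower in wild type, 12.6% and 14.9% in chk1, and 12.4% and 12.6% in cds1. In rad3 and rad3 sep1 it was as given above for nc-pho1. Against wild type, the late response of 2 of the 9 phosphate genes was lower in rad3 and the same number in cds1, none higher, where 0.61% and 1.06% of all features were lower and 0.691% and 1.1% higher. The 2 genes were pho84 and pho842 in both comparisons, which share the wild-type samples. In chk1 against wild type none of the 9 passed, nor did any at an unadjusted p under 0.05, and 0 of all 4921 features passed by limma (109 at an unadjusted p under 0.05).

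The transporter gene pho84, the nearest gene with probes on one side of nc-pho1, had the same order of strains at 120 min. In wild type its log2 ratios were -0.27, -0.04 and -0.29 untreated and 0.25, 0.32 and 0.24 at 120 min, with no overlap. In rad3 they were -0.53, -0.37 and -0.51 untreated and -1.56, -1.58 and -1.55 at 120 min. In cds1 they went from -0.25, -0.08 and -0.07 to -1.37, -1.02 and -1.14. In both mutants the treated samples lay far below the untreated ones.

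In chk1 pho84 read -0.20, -0.05 and -0.08 untreated and 0.58, 0.50 and 0.41 at 120 min, again without overlap and above wild type. In rad3 sep1 it read 0.35, 0.38, 0.47, 0.36 and 0.13 from 0 to 120 min, above every rad3 sample throughout.

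The late response of pho84 was -0.79 ± 0.10 in rad3 (adjusted p = 1.04e-07) and -0.84 ± 0.10 in cds1 (adjusted p = 7.07e-09) by limma. It was 0.30 ± 0.10 in chk1 (adjusted p = 0.0274), a call lost in 7 of 20 alternative fits, 0.24 ± 0.10 in wild type (adjusted p = 0.0799) and -0.10 ± 0.17 in rad3 sep1 (adjusted p = 0.779). At 120 min alone, a window added after the values were seen, pho84 rose in wild type by 0.47 (adjusted p = 0.00172; 13% of all features rose) and in chk1 by 0.60 (adjusted p = 5.22e-05; 17.2%). In cds1 its change at 120 min was -1.04 (adjusted p = 8.08e-10; 14.1% of all features fell).

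The difference of the late pho84 response from that of wild type was -1.04 ± 0.15 in rad3 (adjusted p = 2.41e-06) and -1.08 ± 0.14 in cds1 (adjusted p = 8.89e-07), and 0.05 ± 0.15 in chk1 (adjusted p = 1.00). For nc-pho1 the corresponding values were -2.03, -2.39 and 0.22. At 120 min alone the pho84 differences were -1.57 and -1.51, where 1.61% and 1.36% of all features were lower. Over the 5 times pho84 was higher in rad3 sep1 than in rad3 by 1.20 ± 0.07 (adjusted p = 4.62e-18), and by 0.82 ± 0.16 before treatment (adjusted p = 0.000303). With the culture series as a random block the first of these was 1.20 ± 0.11 (adjusted p = 2.13e-12). Both nc-pho1 and pho84 thus stood higher in rad3 sep1 than in rad3.

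**Figure D3:**
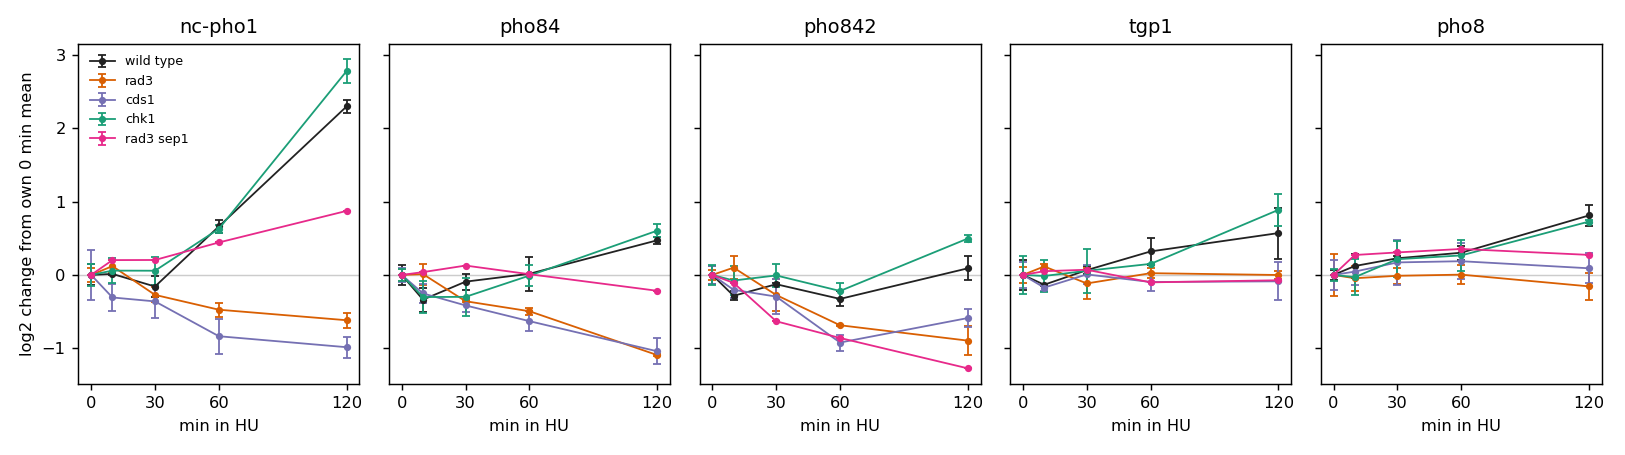
The log2 change from the strain's own 0 min mean (y axis) against minutes in HU (x axis) for nc-pho1 and 4 phosphate genes, as group means with SD bars over samples and one line per strain; rad3 sep1 has 1 sample a time and no bar. At 120 min wild type and chk1 lie above rad3 and cds1 in each panel, with the widest gap for nc-pho1. Of the 9 measured phosphate genes only these 4 are shown. Among the rest pho4 had that order, while pho7, csk1, pqr1 and vtc4 did not. For pho7 the changes were 0.05 in wild type, 0.19 in chk1, 0.40 in rad3 and 0.31 in cds1.

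A second phosphate transporter gene, pho842, fell late in rad3 by 0.79 (adjusted p = 2.11e-07) and in cds1 by 0.76 (adjusted p = 1.66e-07), and had a change of -1.07 ± 0.18 in rad3 sep1 (adjusted p = 1.52e-05). In wild type its change was -0.12 (adjusted p = 0.455) and in chk1 0.14 (adjusted p = 0.351). Its differences from wild type were -0.67 in rad3 (adjusted p = 0.00672) and -0.64 in cds1 (adjusted p = 0.0108), and each lost its call in 3 alternative fits, quantile normalization among them. Over the 5 times the difference of pho842 between rad3 sep1 and rad3 was -0.12 ± 0.08 and did not pass (adjusted p = 0.174).

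tgp1 and pho8, which encodes an alkaline phosphatase of the vacuole, rose late in wild type and in chk1. tgp1 rose late by 0.45 ± 0.13 in wild type (adjusted p = 0.0121) and 0.52 ± 0.13 in chk1 (adjusted p = 0.00304), against 0.01 in rad3, -0.09 in cds1 and, in the double mutant, -0.09 (adjusted p = 0.866). The wild-type call of tgp1 was lost without the untreated sample 2 (0.35) or the merged 60 min sample (0.38), and on the second probe alone (0.48). Its chk1 call was also lost on the second probe alone (0.45). pho8 rose by 0.56 ± 0.14 in wild type (adjusted p = 0.00196) and 0.50 ± 0.14 in chk1 (adjusted p = 0.0047), against -0.08 in rad3, 0.14 in cds1 and, in the double mutant, 0.31 (adjusted p = 0.41).

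The differences between strains did not pass for these genes on the late mean. For tgp1 the late response differed from wild type by -0.43 in rad3 (adjusted p = 0.348) and -0.54 in cds1 (adjusted p = 0.129). At 120 min alone the tgp1 differences were -0.57 and -0.66, which did not pass by limma (adjusted p = 0.134 and 0.0676). For pho8 the differences were -0.63 in rad3 (adjusted p = 0.102) and -0.42 in cds1 (adjusted p = 0.265); at 120 min alone they were -0.97 (adjusted p = 0.00268) and -0.72 (adjusted p = 0.0451) and passed. pho4, a thiamine-repressible acid phosphatase gene, and vtc4, a polyphosphate polymerase gene, fell late in rad3 by 0.59 (adjusted p = 0.0036) and 0.45 (adjusted p = 0.0145). The call for vtc4 was lost without rad3 untreated replicate 3 (-0.19) or without the second 60 min sample (-0.38), after quantile normalization (-0.39) and on the second probe alone (-0.28), and that for pho4 on the first probe alone (adjusted p = 0.0965). pho7, csk1 and pqr1 passed in no strain on the late mean. The gene of the activator, pho7, rose in rad3 at 120 min alone by 0.40 (adjusted p = 0.019; 14.1% of all features rose).

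The genes beside nc-pho1 on the chromosome had a median late change above 0 in all 5 strains, rad3 and cds1 included. Of the 5 nearest features with probes on each side, 5 of the 10 rose late in wild type and none fell, 3 rose in chk1 and none fell, and in rad3 2 rose and 2 fell. In cds1 1 rose and 1 fell, and in rad3 sep1 3 rose and none fell. Of all features 12.3% rose late in wild type, 12.6% in chk1, 10.4% in rad3, 11% in rad3 sep1 and 12.4% in cds1. The wild-type count was 2 without untreated replicate 1 or 120 min replicate 2, and 3 without untreated replicate 2 or the merged 60 min sample. In chk1 it was 1 without untreated replicate 3, the merged 60 min sample or 120 min replicate 1, and in rad3 2 passed without untreated replicate 3 or 60 min replicate 2. Their median late change was 0.39 in wild type, 0.29 in chk1, 0.22 in cds1, 0.19 in rad3 and 0.62 in rad3 sep1. Against wild type, pho84 alone among the 10 had a different response in rad3 or in cds1 on the late mean by limma. The response of SPOM_SPBC8E4.04 was also lower than in wild type at 120 min alone in rad3 (-0.55, adjusted p = 0.0252) and in cds1 (-0.51, adjusted p = 0.0445).

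The coding feature SPOM_SPBC8E4.04 rose late in all 5 strains, by 0.80 in wild type, 0.45 in rad3, 0.36 in cds1, 0.57 in chk1 and 1.19 in rad3 sep1 (adjusted p = 0.00296 or lower in each); after quantile normalization the calls in rad3, cds1, chk1 and rad3 sep1 were lost. The non-coding RNA prt2, which overlaps pho84 in the annotation but has probes of its own, fell late in rad3 by 0.38 (adjusted p = 0.0176), a call lost in 4 alternative fits. Its change was -0.08 in wild type, -0.22 in chk1 and 0.12 in cds1. The other non-coding feature with a symbol, adh1AS, antisense to the alcohol dehydrogenase gene adh1, passed late in no strain, with 0.12 in wild type. Neither had a late response in wild type or chk1 near the 1.48 and 1.71 of nc-pho1.

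**Figure D4:**
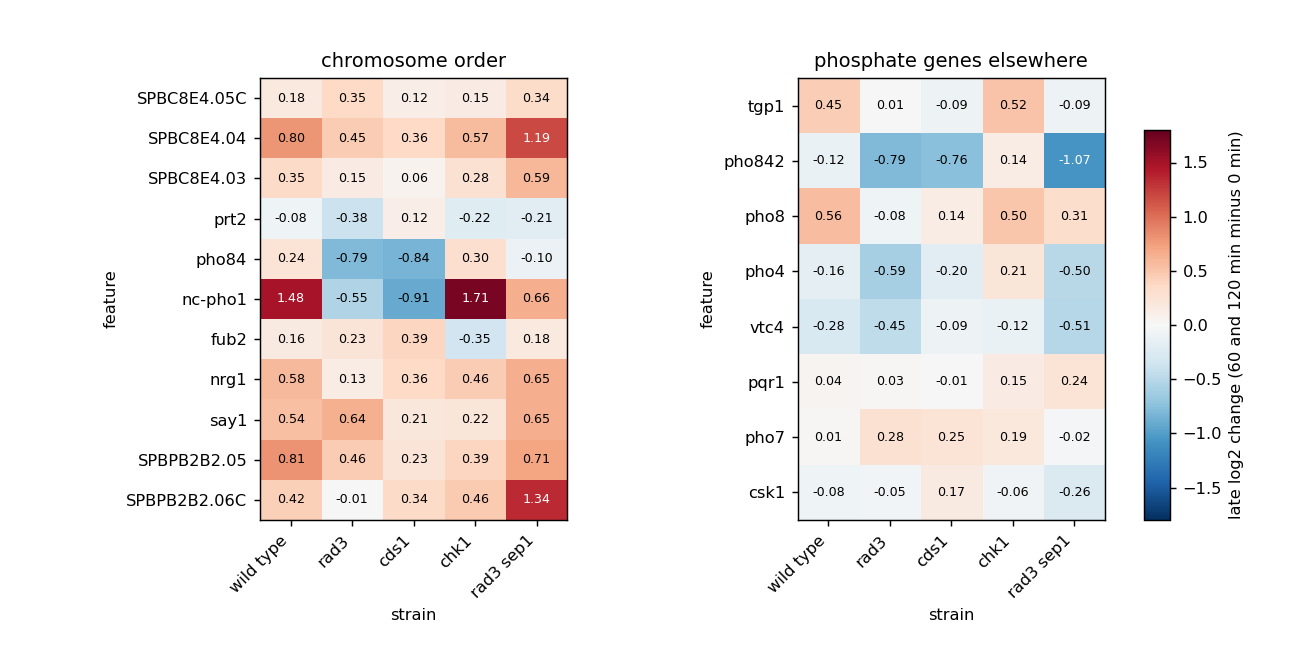
Late log2 change (60 and 120 min averaged, less 0 min; colour and printed value) by strain (columns) for nc-pho1 and the 5 nearest features with probes on each side, in chromosome order (left), and for the other phosphate genes (right). In the left panel nc-pho1 (1.48, -0.55, -0.91, 1.71 and 0.66) and pho84 have opposite signs in wild type and chk1 against rad3 and cds1.

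Among genes that act on transcripts of this kind, the share that passed late, both directions counted together, was not above that of all features in any strain. In chk1 it was near that share for both lists, so no trait of the lists is read from the counts. Of 17 measured genes of RNA elimination, 1 rose and 2 fell late in wild type, 1 fell in rad3, 1 rose and 1 fell in cds1, 1 rose and 3 fell in chk1, and none passed in rad3 sep1. The background was 12.3% of all features higher and 12.1% lower in wild type, 10.4% and 8.94% in rad3, 12.4% and 12.6% in cds1, and 12.6% and 14.9% in chk1. With 1 sample left out the number that passed ranged from 0 to 3 in wild type (0 without untreated replicate 1; 1 without untreated replicate 2 or replicate 1 of 60 or of 120 min), 0 to 1 in rad3 (0 without any 1 of the 3 untreated samples, either 60 min sample or 120 min replicate 1), 0 to 4 in cds1 (0 without 60 min replicate 1; 1 without untreated replicate 2 or replicate 3 of 60 or of 120 min; 4 without 120 min replicate 1) and 1 to 4 in chk1 (1 without untreated replicate 3, 2 without untreated replicate 2). The gene that rose in these strains other than rad3 was iss10, whose product bridges Mmi1 and Red1, with 0.28 in wild type (adjusted p = 0.0463), 0.32 in cds1 (adjusted p = 0.0159) and 0.31 in chk1 (adjusted p = 0.0225). swi6, the heterochromatin protein gene, fell in the same 3 strains (-0.36, -0.36 and -0.48), rrp6 of the nuclear exosome in wild type (-0.61), red1 and rmn1 of the complex that targets such RNAs to the exosome in chk1 (-0.35 and -0.36), and rdp1, an RNA-dependent RNA polymerase gene, in rad3 (-0.35).

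Of 20 measured 3' end genes, 2 fell late in wild type and 4 each in chk1 and cds1, and 1 rose in chk1, while none passed in rad3 or rad3 sep1, against the same background. With 1 sample left out the number was 1 in wild type without untreated replicate 1, 60 min replicate 1 or 120 min replicate 2, and 4 without 120 min replicate 3. It was 2 in cds1 without untreated replicate 2, and 1 in rad3 without 120 min replicate 1. ppn1 and ssu72, which encode subunits of the phosphatase arm of the cleavage and polyadenylation factor, fell in wild type (-0.41 and -0.28), cds1 (-0.33 and -0.37) and chk1 (-0.41 and -0.52). cft2 of the same factor fell in cds1 (-0.34) and chk1 (-0.35), aps1, which encodes an inositol pyrophosphate hydrolase, in cds1 (-0.30), and dis2, the gene of its catalytic phosphatase, rose in chk1 (0.39). No member of either list had a late response that differed from wild type in rad3, cds1 or chk1 by limma; at an unadjusted p under 0.05 there was 1 among all 3 comparisons, in the RNA elimination list for cds1.

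The features whose means over the 25 groups were most like those of nc-pho1, by Pearson r among 4827 named features, were sec6102 (0.83), rot1 (0.82), mfs2 (0.81), itr1 (0.80) and hop1 (0.80). itr1 is an inositol transporter gene and hop1 a gene of the meiotic chromosome axis. None of the 5 had a late change in wild type above 0.40, and nc-pho1 had 1.48. The lowest were pxd1 (-0.85), bub1 (-0.84), a spindle checkpoint kinase gene, and taz1 (-0.84), a telomere protein gene. pho84 had 0.78, rank 13, and tgp1 0.75, rank 29.

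The likeness depends on the measure. By Spearman's rho, itr1 (0.87) and pho84 (0.86) came first and second, and 1 of the 5 above was again in the top 5. Over the 20 changes from each strain's own 0 min mean, arg5 came first (0.91), tgp1 had rank 5 (0.86), pho8 rank 6 (0.86) and pho84 rank 7 (0.85), and none of the 5 stayed in the top 5. Of the other phosphate genes, pho842 (0.48), pqr1 (0.36) and pho4 (0.19) were positive there. Those of csk1, pho7 and vtc4 were negative (-0.32, -0.29 and -0.19). By Spearman's rho tgp1 had 0.42 (rank 703) and pho8 -0.07 (rank 2712). The points of each measure share strains, arrays and the reference, and wild type and chk1 at 120 min weigh heavily in Pearson's r. Without those groups tgp1 had 0.18 (rank 2043), pho8 -0.34 (rank 3119) and pho84 0.84 (rank 21).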

How the data were processed

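The values were deposited as log2 ratios of Cy5 (sample) to Cy3 (untreated wild type), per the labels' dyes; how they were normalized is not stated in the labels. The base and the direction follow from the data, since 100% of values equalled the log2 of a 3-decimal ratio (relative tolerance 1e-05), and mutated genes were low in their own strains. No further scaling was applied. The 2 probes of a feature were averaged. Of 4929 features, 4921 had values on at least 2 arrays of every group and were tested. A pair of arrays was merged where its difference did not repeat between the 2 probes (r under 0.1). The number of arrays limits the precision.

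Group means of 25 groups were fitted with limma 3.58.1 (lmFit, eBayes) in R 4.3.3, checked on simulated data, with Benjamini-Hochberg adjustment over all features and a threshold of 0.05. The simulation covered the late response in rad3 alone and drew independent errors, so it does not cover deviations shared between samples. "Rose" and "fell" are used for tested changes that passed. Tables were made with pandas 2.3.3 and numpy 2.4.6, and figures with matplotlib 3.10.9, in Python 3.11.15. Names come from the platform's probe annotation: 9632 probes had 1 symbol, 44 several and 182 none. The pho84 probes carry 2 symbols that the reference lists as synonyms of 1 gene, as do those of 19 features in all, and were named so.

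The member, the lists, the comparisons and the naming rule were chosen with earlier results of these data known. Named were nc-pho1, the mutated genes, every measured gene of the phosphate list, the 5 nearest features with probes on each side, up to 4 members with the smallest adjusted p of the RNA elimination and 3' end lists per comparison, other non-coding features, and the 5 most and 3 least alike features; arg5 was named after its value was seen. Alternatives were array centring, quantile normalization, filters on missing values, single probes, robust eBayes, array weights, all 70 arrays, the strains of the comparison alone, a replicate block and leaving out samples; 120 min alone, the rad3 sep1 interaction and the culture series (strain and replicate number) as a random block were added later.

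Same-numbered samples had deviations from their group means that correlated above 0.1 in all 22 pairs of times within chk1, and in 14 of 15 pairs within wild type, 19 of 22 within rad3, 28 of 30 within cds1 and 16 of 18 between strains at 0 min.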

Additional observations from a re-analysis of the deposited data

Results flagged for a closer look

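The late response of nc-pho1 had opposite directions between strains: every late sample lay above the untreated mean in wild type (5 of 5), chk1 (5 of 5) and rad3 sep1 (2 of 2), and below it in rad3 (5 of 5) and cds1 (6 of 6). The gene was chosen by its directions in wild type, chk1 and cds1, so those counts are no finding. In rad3 sep1 the untreated mean is a single sample, and the late response changed sign after quantile normalization, as given below. The differences of the late log2 responses were -2.03 for rad3 minus wild type, -2.39 for cds1 minus wild type, 2.25 for chk1 minus rad3, 2.62 for chk1 minus cds1 and 1.57 for rad3 sep1 minus cds1, none of which was tested. The difference of 1.21 for rad3 sep1 minus rad3 was tested by the interaction term given in the report.

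The late response also differed by the interaction term of limma for pho84 (-1.04 for rad3 and -1.08 for cds1, each minus wild type) and pho842 (-0.67 and -0.64). For SPOM_SPBC8E4.04 the response was higher in rad3 sep1 than in rad3 by 0.74, a call lost in 11 of 25 alternative fits.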

How the results depend on the processing

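The fall of nc-pho1 in rad3 kept its direction and call under every alternative run. Quantile normalization gave -0.048 early and -0.11 late in rad3 sep1, 0.45 for the difference of late responses between rad3 sep1 and rad3, 1.20 late in wild type and 1.37 in chk1. The first probe alone gave 0.065 early in rad3, 0.59 late in rad3 sep1, 1.04 for that difference, 1.91 late in chk1 and -0.13 for untreated chk1 minus wild type. The second probe gave 1.50 late in chk1, 0.22 for untreated chk1 minus wild type and 0.36 (adjusted p = 0.267) for untreated rad3 sep1 minus rad3. At 120 min alone the changes were 2.30 in wild type and 2.78 in chk1. The causes were not tested. Of the 5 most alike features, 1 was shared by Spearman's rho, 0 by changes from 0 min and 0 without wild type and chk1 at 120 min.

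Leaving out 1 sample at a time (in rad3 sep1, 1 array of a pair) gave, early and late, -0.12 to -0.02 and -0.59 to -0.49 in rad3, 0.13 to 0.28 and 0.58 to 0.74 in rad3 sep1, -0.12 to 0.01 and 1.44 to 1.56 in wild type, -0.47 to -0.15 and -1.05 to -0.72 in cds1, and 0.00 to 0.14 and 1.64 to 1.79 in chk1. For rad3 sep1 minus rad3 it gave 0.43 to 0.58 at 0 min, 1.09 to 1.12 over the 5 times and 1.13 to 1.28 for late responses. Untreated minus wild type, it gave 0.10 to 0.24 in rad3, 0.34 to 0.66 in cds1 and -0.04 to 0.12 in chk1.

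With the replicate number as a replicate block, the late response was -0.56 in rad3 and 0.66 in rad3 sep1, and rad3 sep1 minus rad3 was 0.40 at 0 min (adjusted p = 0.04999, just under the threshold) and 1.00 over the 5 times. A merged sample took the number of its first array, so all rad3 sep1 samples were grouped with the first replicates of the other strains. Whether rad3 sep1 shares the deviations of those replicates was not tested. In chk1, where every pair correlated, the block called 250 features early in place of 60, pho84 among them (-0.30, adjusted p = 0.0231), and SPOM_SPBC8E4.03 late (0.25, adjusted p = 0.0298); it changed no other chk1 call named in the report. In wild type, rad3 and cds1 most pairs correlated but not every one, and the block called 1604, 1326 and 1684 features late in place of 1201, 952 and 1228. For late responses minus wild type it called 143 in rad3 and 295 in cds1. With the culture series as a random block, nc-pho1 kept the direction and call of each of its 7 tested results.

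Over the alternatives other than the series block, counts of called features ranged as follows: early 12 to 157 in wild type (38 in the report's fit), 24 to 835 in rad3 (110), 11 to 106 in cds1 (26), 22 to 294 in chk1 (60) and 2 to 162 in rad3 sep1 (7), late 725 to 1841 in wild type (1201), 564 to 1644 in rad3 (952), 884 to 1813 in chk1 (1352) and 117 to 1771 in rad3 sep1 (796). Late minus wild type, they were 40 to 208 in rad3 (64), 51 to 374 in cds1 (106) and 0 to 2 in chk1 (0). For rad3 sep1 minus rad3 they were 581 to 2052 at 0 min (1083) and 6 to 339 late (40). The fit on the strains of the comparison alone was not run for responses within rad3 sep1, which has 1 sample a time and no residual degrees of freedom.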
